A study of Mus musculus with 12 samples.

Results

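Gastruloids grown with 2-deoxy-D-glucose (2-DG) were compared with gastruloids grown in 1X glucose across the whole transcriptome. The comparison takes in 6 of the 12 polyA RNA libraries of the series, 3 that the labels call 2-DG and 3 that they call 1X glucose, and 16966 of 38911 listed genes passed the filter on low counts and were tested. Gastruloids are small aggregates of mouse embryonic stem (ES) cells that lengthen in culture and form cell types of the early trunk. All groups came from the line E14TG2a, were seeded at 200 cells per aggregate, received a pulse of CHIR99021, an activator of Wnt signalling, on day 2, and were collected on day 4. The ES cells of all groups had been kept in 2iLIF, a medium with inhibitors of GSK3 and MEK and the cytokine LIF. Between day 3 and day 4 the 2-DG group had 5 mM 2-DG in medium with 21.25 mM glucose, and the 1X group had the same medium without 2-DG. The other groups had 0 mM glucose (0X) and 63.75 mM glucose (3X), and they enter here through the estimate of the spread and as values beside a few genes. Stem cells of passages 13, 15 and 16 each gave 1 library per group, so 2-DG and 1X libraries were compared within passage. Each library pools gastruloids from a plate, all from a single cell line. The spread within a group is thus that between libraries of different passages and not between individual gastruloids or lines. The test removes differences that all groups of a passage share, so its error is what remains between libraries within passages.

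2-DG is glucose that lacks a hydroxyl group on its second carbon. Cells import it through glucose transporters and hexokinase phosphorylates it, but it cannot be carried on through glycolysis. It also resembles mannose, the sugar from which much of the asparagine-linked glycan of secreted and membrane proteins is built, and it can be taken into growing glycans in its place. The glycan is made on the membrane of the endoplasmic reticulum (ER), moved onto new proteins as they enter it, and read there by chaperones that help the protein to fold. When folding fails, sensors in the ER membrane raise the transcription of genes for folding, export and disposal of proteins.

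Levels below are CPM, a gene's count relative to the total of its library, scaled between libraries, always in the order of passages 13, 15 and 16. Fold changes are log2 values of 2-DG over 1X glucose, with their standard error (SE), from edgeR's quasi-likelihood test with passage as a block. A gene was called where its Benjamini-Hochberg adjusted p over all tested genes was under 0.05. CPM is not divided by transcript length, so it is compared between libraries and not between genes.

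The deposited counts summed to 38439471 to 45956080 per 1X library and 33666332 to 37496932 per 2-DG library, and genes encoded in mitochondrial DNA took between 1.91% and 2.24% of the counts. At the same passage, the deviations of the 1X and the 2-DG library from their group means correlated across genes at 0.375, 0.230 and 0.132, and 7840 genes differed between passages. The 8 markers of gastruloid tissue were present in every library, with a summed level of 1038 to 1282 CPM in 1X glucose and 712 to 766 CPM in 2-DG. Markers of other cell types moved beside them. Endothelial markers summed to 4.44 to 14.5 CPM in 1X glucose and 2.84 to 3.43 CPM in 2-DG, with 5 of 8 called lower and none at 0 counts. Neuronal markers summed to 50.9 to 86.3 and 78.4 to 100.2 CPM, and naive pluripotency markers to 9.59 to 14.3 and 14.7 to 16.3 CPM. Trophoblast markers summed to 151 to 356 and 122.7 to 186 CPM. Most of that sum was Cdx2, which is also among the markers of gastruloid tissue. Cdx2 alone was at 338, 135 and 148 CPM in 1X glucose and 156, 96.5 and 121 CPM in 2-DG. Fibroblast markers, which include Fn1, summed to 748 to 1997 and 528 to 1344.7 CPM. Blood markers were near absent, with 4 of them at 0 counts in all 6 libraries. The part of these cell types in the results below was not tested, and in pooled gastruloids fewer cells of a type cannot be told apart from less of its RNA per cell.

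Of the 16966 genes tested, 7001 (41.3%) were called, 3580 (21.1%) higher in 2-DG and 3421 (20.2%) lower. The counts given for each gene list below are to be read beside these shares, and several lists lie near them. Most of these differences were small. The median size among called genes was 0.34 on the log2 scale, and 4644 of them (66.3%) differed by less than 0.5. Only 836 genes (4.93%) were called with a fold of at least 2, and here higher outnumbered lower, 507 (2.99%) against 329 (1.94%). All 3 libraries of one group lay above all 3 of the other in 6014 tested genes (35.4%) and in 4971 called genes (71.0%), and 6914 called genes moved the same way in all 3 passages. The median log2 fold change over all genes was 0.006, which the scaling between libraries holds near 0, so the counts of higher and lower genes are relative to the centre of all genes. Without the passage block the test called 2990 genes, 1547 higher and 1443 lower, and with passage 15 left out 3749. Where a gene is named below without remark, it was also called by DESeq2, by limma-voom and with any single library or passage left out. This does not cover the most abundant transcript of each gene taken alone, where 58 of 170 genes named as called lost their call.

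**Figure D1:**
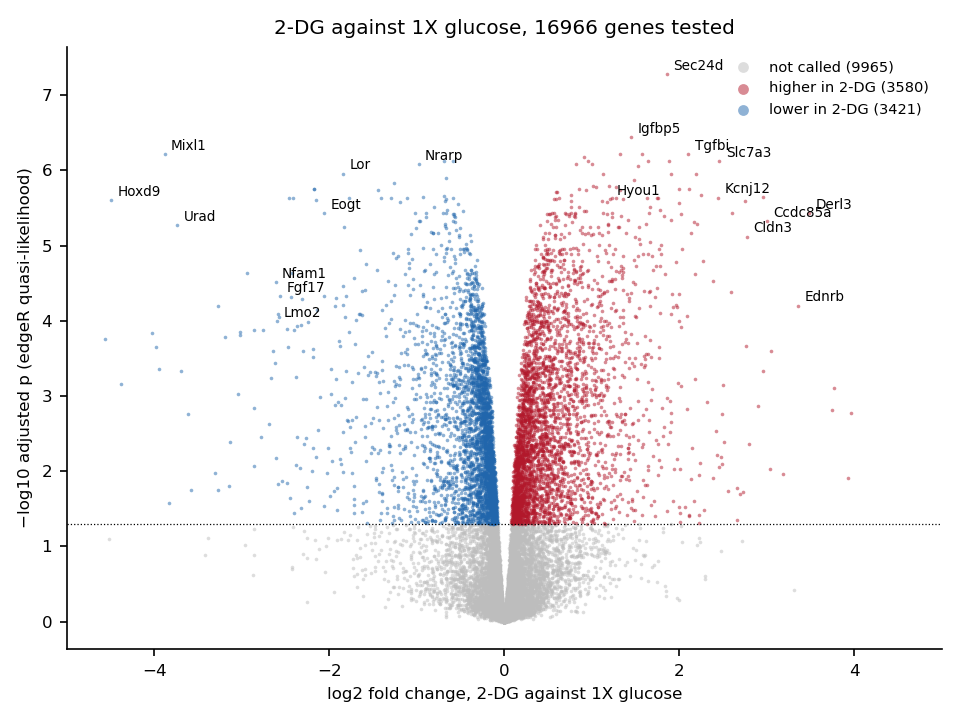
Log2 fold change of 2-DG over 1X glucose (horizontal, cut at 5 in both directions, which leaves out 24 genes) against the −log10 adjusted p (vertical) for each gene tested, with called genes in colour and genes named in the text labelled. Sec24d, at 1.85, stands highest, and more genes lie beyond a fold of 2 on the side of higher levels in 2-DG (507) than on the other (329).

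The gene with the smallest p of all was Sec24d, a subunit of the COPII coat that gathers cargo for transport out of the ER. It is listed on chromosome 3 from 123264801 to 123365641 of build mm10. Its level was 23.0, 22.5 and 23.7 CPM in 1X glucose and 86.2, 85.2 and 78.3 CPM in 2-DG. The 2-DG libraries lay within a narrow band far above the 1X libraries (log2 fold change 1.85 ± 0.05 SE, adjusted p = 5.31e-08). In the 0X and 3X groups Sec24d averaged 21.6 and 23.4 CPM, and 2-DG exceeded each (log2 difference 1.95 from 0X and 1.83 from 3X, both called). These comparisons share the 2-DG libraries with the main one and are given side by side only.

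Derl3, a component of the machinery that moves misfolded proteins out of the ER for destruction, had the highest log2 fold change among well-measured genes. It lies on chromosome 10 and was at 0.703, 0.474 and 0.389 CPM in 1X glucose and 8.84, 4.74 and 4.32 CPM in 2-DG, with every 2-DG library above every 1X library (log2 fold change 3.48 ± 0.23 SE, adjusted p = 3.74e-06). Chac1, a glutathione-degrading enzyme, and Trib3, a pseudokinase, both known targets of ATF4, rose by 3.05 ± 0.42 and 2.59 ± 0.26. Their 2-DG levels varied with passage, Chac1 from 3.62 CPM at passage 16 to 13.6 CPM at passage 15, and stayed above all 1X libraries. Slc7a3, a transporter of arginine and lysine, went from 5.12 ± 2.13 to 28.2 ± 11.6 CPM (log2 fold change 2.46), and its relative Slc7a1 from 27.2 ± 2.63 to 68.1 ± 10.3 CPM (1.32). Other genes high in this order are better known for roles outside the ER. Ednrb, the endothelin receptor of neural crest cells, rose from 0.359 ± 0.164 to 4.24 ± 4.20 CPM, Dlx3, a homeobox factor of surface ectoderm, from 1.30 ± 0.260 to 7.91 ± 0.481 CPM, and Cldn3, a tight junction claudin, from 0.713 ± 0.439 to 4.71 ± 1.22 CPM. Bhlhe41, a repressor linked to the circadian clock, rose from 2.88 ± 0.254 to 19.8 ± 5.24 CPM. Kcnj12, an inward rectifier potassium channel, Ccdc85a, Rnf112 and Tmem132e had log2 fold changes between 2.39 and 3.00. Of these, Kcnj12 was called only with the passage block.

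At the other end, Urad, an enzyme of urate breakdown, fell from 3.33 ± 2.52 to 0.232 ± 0.0536 CPM, a log2 fold change of −3.74 ± 0.27. Evx1os, an antisense RNA of the posterior homeobox gene Evx1, fell from 45.2 ± 23.4 to 4.50 ± 3.04 CPM (−3.19), and Lix1 from 10.99 ± 8.46 to 1.14 ± 0.514 CPM (−3.01). Nfam1, Gm53 and Lefty2, a secreted inhibitor of Nodal, fell by between 2.61 and 3.26 on the log2 scale. In each of these genes the highest 2-DG library lay below the lowest 1X library. Alms1-ps2, a pseudogene, had no count in any 2-DG library and counts of 125, 112 and 175 in 1X glucose, but it also averaged 0 CPM in 0X glucose. Zfp973 had no counts in 2-DG and none at passage 13 in 1X glucose either, and its call was lost by DESeq2, by limma-voom, without 2-DG replicate 15 and without 2-DG replicate 16. Among the genes called with a fold of at least 2, 24 that were lower had no more than 3 counts in any 2-DG library, and 3 that were higher had no more than 3 in any 1X library, so their fold changes are not sizes.

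ER chaperones were among the genes whose CPM differed most between the groups, an order that depends on transcript length as well as abundance. Hsp90b1, the ER form of Hsp90, was at 710.1, 759 and 715 CPM in 1X glucose and 1679.7, 1482 and 1372 CPM in 2-DG. Hspa5, the chaperone also called BiP, rose from 625 ± 32.3 to 1357 ± 153 CPM, and P4hb, a disulfide isomerase, from 531 ± 12.2 to 1017 ± 126 CPM. In the list of ER chaperones and disulfide isomerases, 20 of 22 tested genes were called higher and none lower, with summed levels of 5153, 5409 and 5215 CPM in 1X glucose and 11107, 10127 and 9200 CPM in 2-DG. The summed amount was thus 1.93 times that of 1X glucose on average. Other genes in that order had smaller fold changes. Eef2, the translation elongation factor, rose by 0.17 ± 0.03, Hdlbp, a large RNA-binding protein of the ER surface, by 0.57 ± 0.04, while Ldha, a lactate dehydrogenase subunit, fell by 0.22 ± 0.04, a call that needed the passage block. B130016D09Rik, a long noncoding RNA, fell from 1015 ± 125 to 624 ± 70.1 CPM, with no overlap of the groups.

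The ER stress element ERSE is a known binding arrangement of the stress factors ATF6 and NF-Y, and it was looked for in the 250 bases before the start of each gene as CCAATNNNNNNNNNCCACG on either strand. RefSeq promoters of build GRCm38.p6 were found for 13049 of the tested genes. A gene with more than 1 listed start counted as holding the arrangement if the bases before any of them did. The arrangement occurs in 35 of all 27025 promoters (0.13%) and in 23 of the tested ones (0.176%). Of those 23 genes, 15 were called higher, 2 lower and 6 were not called, with a median log2 fold change of 0.41. The share of promoters holding it was 0.538% among genes called higher, 2.45% among those called higher with a fold of at least 2, 0.0742% among those called lower and 0.0793% among those not called. The windows of 5 of the genes called higher follow, 5′ to 3′ along the gene, with the motif on either strand in capitals. Gm6566, Hspa5 and Syvn1 had larger changes than Hsp90b1, the last of them, and are not shown. Derl3 at chr10:75893227-75893275 (plus strand) has a log2 fold change of 3.48, Ero1b at chr13:12565667-12565715 (plus) of 2.02, Creld2 at chr15:88819505-88819553 (plus) of 1.64, Dnajc3 at chr14:118937812-118937860 (plus) of 1.53 and Hsp90b1 at chr10:86705518-86705671 (minus), which holds 2 copies, of 1.05.
Derl3: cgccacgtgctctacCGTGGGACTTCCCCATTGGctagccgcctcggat
Ero1b: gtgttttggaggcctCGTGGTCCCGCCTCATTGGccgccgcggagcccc
Creld2: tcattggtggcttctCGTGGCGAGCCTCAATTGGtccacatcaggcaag
Dnajc3: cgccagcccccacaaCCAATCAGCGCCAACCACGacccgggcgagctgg
Hsp90b1: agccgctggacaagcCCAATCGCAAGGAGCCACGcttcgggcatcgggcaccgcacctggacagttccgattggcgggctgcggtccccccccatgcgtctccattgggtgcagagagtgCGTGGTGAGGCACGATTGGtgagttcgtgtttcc
The proteins these genes encode act at steps of folding in the ER. Ero1b re-oxidises disulfide isomerases, Creld2 is a secreted ER stress protein, and Dnajc3 is a co-chaperone of BiP. The genes with the motif that were called lower, Xlr3b and Xlr3c, are near-identical copies on the X chromosome that can share reads. Neither was called without passage 15 or without the block, and Xlr3b also not without the 1X or the 2-DG library of passage 13 or 15. A match describes the letters in the window and does not show binding.

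**Figure D2:**
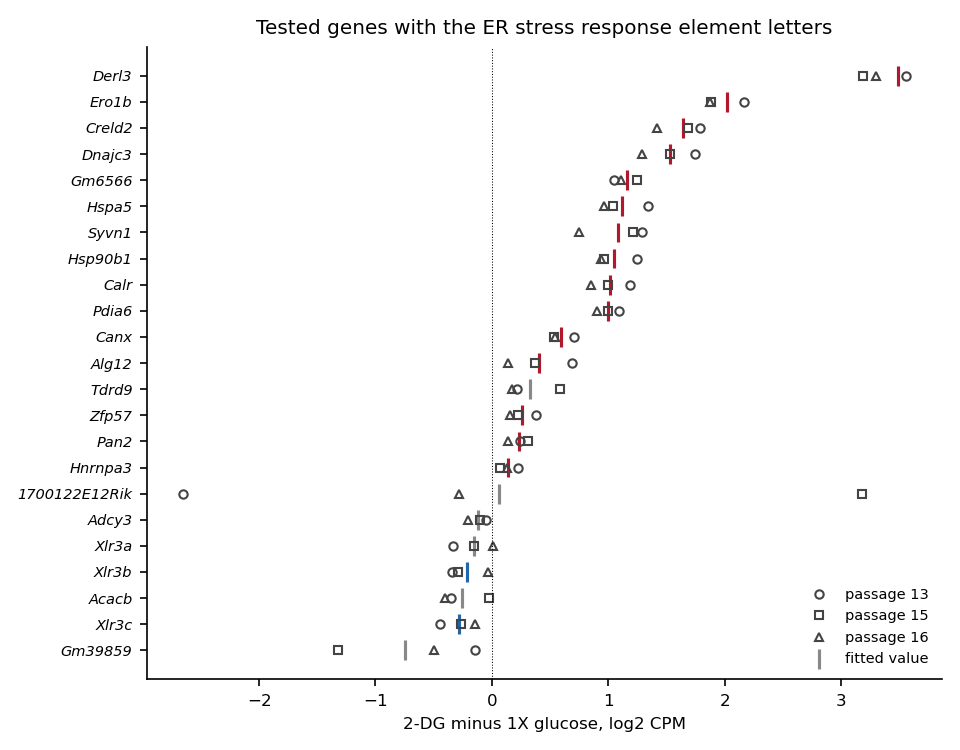
Difference of 2-DG from 1X glucose in log2 CPM at passages 13, 15 and 16 (open symbols) and the fitted log2 fold change (bar, red where called higher, blue where called lower, grey where not called) for the 23 tested genes whose RefSeq promoter holds the ERSE letters. The fitted values run from −0.75 for Gm39859, which was not called, to 3.48 for Derl3.

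Beyond the chaperones, genes of the early secretory route rose widely. Of 48 tested genes of the COPI and COPII coats and their cargo receptors, 35 were called higher and 3 lower, with a median log2 fold change of 0.33, against 41.3% of all genes called in either direction and a median of 0.006. After Sec24d the members with the largest changes were Kdelr3, a receptor that returns escaped chaperones to the ER, Arfgap3, which switches off the COPI regulator Arf1, and Tmed3, a cargo receptor. Kdelr3 was at 4.72, 3.71 and 4.26 CPM in 1X glucose and 12.1, 9.78 and 7.78 CPM in 2-DG, the groups lying apart (log2 fold change 1.21 ± 0.12 SE). Arfgap3 rose by 0.86 ± 0.10 and Tmed3 by 0.70 ± 0.09. The list summed to 5509, 5902 and 5765 CPM in 1X glucose and 7073, 7130 and 6797 CPM in 2-DG.

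The XBP1-type element TGACGTGG, searched on either strand, occurs in 0.603% of all promoters and 0.835% of tested ones, and in 4 of the 42 coat genes with a promoter (9.52%). Motifs other than ERSE, this element and the E-box were also searched, over all genes and several lists, and are not reported here. All 4 were called higher, as were most genes of the coat list. They were Sec24d at chr3:123267455-123267492 (plus strand) by 1.85, Kdelr3 at chr15:79516363-79516400 (plus) by 1.21, Copb1, a COPI subunit, at chr7:114254686-114254723 (minus) by 0.27, and Arf1 at chr11:59228224-59228261 (minus) by 0.18. Copb1 and Arf1 changed by less than the list median. The Sec24d window precedes a RefSeq start that lies inside the span listed for the gene above. The windows are shown with the element on either strand in capitals, since 2 of the 3 most changed coat genes hold it.
Sec24d: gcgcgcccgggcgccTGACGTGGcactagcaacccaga
Kdelr3: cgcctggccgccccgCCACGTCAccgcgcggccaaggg
Copb1: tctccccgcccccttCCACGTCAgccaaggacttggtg
Arf1: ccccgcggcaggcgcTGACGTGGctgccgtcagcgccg

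Proteins enter the ER through the Sec61 channel, and a signal peptidase trims them there. Among 35 tested genes of translocation and signal peptide removal, 18 were called higher and 6 lower (median 0.16), and the number lower was 2 or 3 without the 1X or 2-DG library of passage 13 or 15. Sec11c, a catalytic subunit of the signal peptidase, rose from 6.66 ± 0.576 to 13.2 ± 1.00 CPM (1.00 ± 0.14), Ssr4, a subunit of the translocon-associated complex, by 0.77 ± 0.06, and the channel subunits Sec61b and Sec61a1 by 0.63 ± 0.05 and 0.60 ± 0.06.

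Genes that build the dolichol-linked glycan and move it onto proteins were divided. Of 40 tested, 16 were called higher and 7 lower (median 0.16), with 4 lower when 1X glucose replicate 15 was left out. The members that rose most belong to the oligosaccharyltransferase, the enzyme that makes the transfer. Magt1 was at 93.8, 101 and 100.1 CPM in 1X glucose and 184, 169.6 and 164 CPM in 2-DG, with all 2-DG libraries far above (log2 fold change 0.81 ± 0.05 SE, adjusted p = 3.74e-06). Rpn1 rose by 0.77 ± 0.05 and Stt3a, its catalytic subunit, by 0.63 ± 0.06. Alg2, a mannosyltransferase that lengthens the glycan on the lipid, rose by 0.59 ± 0.04. Among 47 Golgi glycosyltransferases and mannosidases, which trim and extend the glycan later, 16 were called higher and 12 lower, with a median of 0.003, and without passage 15 the counts were 6 and 6. No Golgi gene was called with a fold of at least 2. Eogt, an ER enzyme that adds N-acetylglucosamine to epidermal growth factor-like repeats of Notch and other proteins, went the other way, from 108 ± 10.3 to 26.3 ± 8.93 CPM (−2.06 ± 0.14).

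The hexosamine pathway, which makes the N-acetylglucosamine donor of both glycan types, had 7 of 14 tested genes higher and 3 lower. Gfpt1, its first and rate-limiting enzyme, was at 68.5, 108 and 113 CPM in 1X glucose and 129, 179 and 168 CPM in 2-DG, so each 2-DG library was above the 1X library of its passage and above all of them (log2 fold change 0.74 ± 0.05 SE). Uap1, which makes the donor itself, rose by 0.63 ± 0.06 and its relative Uap1l1 by 0.44 ± 0.06. Gnpnat1, the acetyltransferase between them, fell by 0.35 ± 0.05.

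Lysosomal genes also rose. Of 52 tested, 38 were called higher and 2 lower (median 0.30), and the list summed to 3661, 3831 and 3812 CPM in 1X glucose and 4577, 4462 and 4507 CPM in 2-DG. Several of the largest changes were in enzymes that break down the sugar chains of glycoproteins and proteoglycans. Manba, the beta-mannosidase, rose from 1.90 ± 0.686 to 4.10 ± 0.818 CPM (1.14 ± 0.13), Neu1, a sialidase, by 0.82 ± 0.08 and Arsb, a sulfatase, by 0.74 ± 0.15. Without the passage block 25 lysosomal genes were called higher and none lower. Autophagy genes did not share this direction. There 6 of 39 were called higher (3 without 1X glucose replicate 13) and 10 lower, beside 21.1% and 20.2% over all genes. Among the lower ones, Gabarapl1, an Atg8-family protein of the autophagosome membrane, fell from 52.8 ± 2.204 to 35.0 ± 2.90 CPM. Atg10, an enzyme of Atg5 conjugation, fell by 1.01 ± 0.12.

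The E-box CACGTG is the core of the sites bound by TFEB-type factors at lysosomal genes and by MondoA and ChREBP at genes that respond to glucose. It is palindromic and common, in 6.86% of all promoters and 9.42% of tested ones. It stands in 14 of 41 lysosomal promoters (34.1%), of which 10 genes were called higher, 2 lower (Naglu and Sgsh) and 2 not called. The share called higher was near that of the whole lysosomal list given above, and the 2 lower genes were the only lower ones of that list. Naglu was not called without the passage block, nor was Sgsh, which also lost its call by DESeq2, without passage 15 and without 1X glucose replicate 15, 2-DG replicate 13 or 2-DG replicate 16. Glb1, the lysosomal beta-galactosidase (log2 fold change 0.64), and Arrdc4, a gene known to respond to sugar (0.94), are shown with the E-box in capitals. Their windows are chr9:114401015-114401050 (plus strand) and chr7:68749411-68749446 (minus strand).
Glb1: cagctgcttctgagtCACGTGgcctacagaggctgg
Arrdc4: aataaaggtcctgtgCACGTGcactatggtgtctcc

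**Figure D3:**
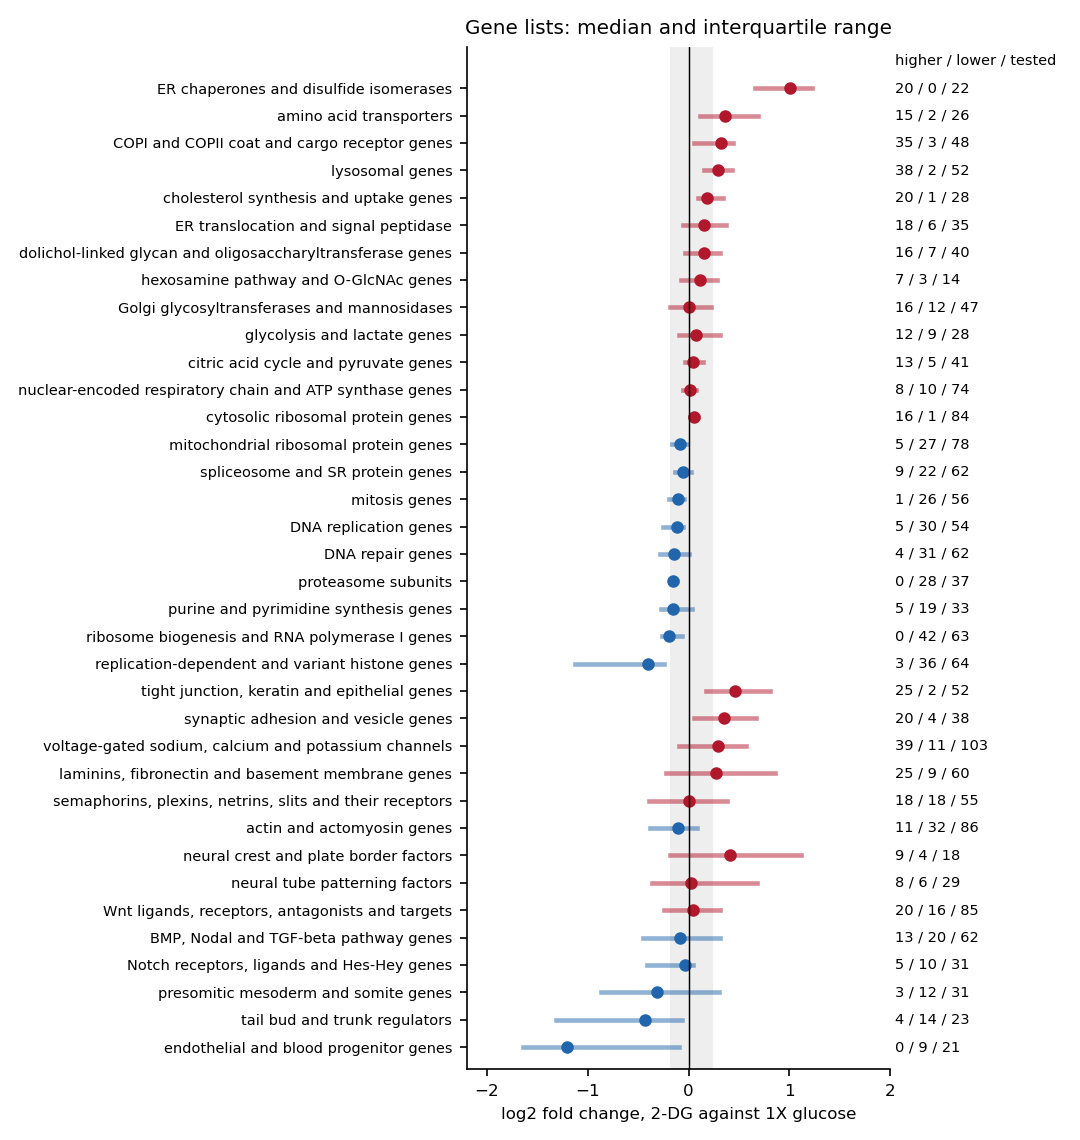
Median (point) and interquartile range (bar) of the log2 fold change of 2-DG over 1X glucose for the tested members of each gene list, beside the numbers called higher, called lower and tested, with the line and grey band giving the median and interquartile range of all genes. The coat and lysosomal lists, with medians of 0.33 and 0.30, lie to the right of the band's centre, and the histone and endothelial lists, with medians of −0.40 and −1.21, to its left.

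MondoA and ChREBP are factors that respond to sugar phosphate inside the cell. Of 8 tested genes for these factors, their partner and their targets, 5 were called higher and 1 lower (median 0.89), the lower one being Mlxip, which encodes MondoA, at −0.30 ± 0.05 and called only with the passage block. Klf10, a zinc finger repressor, was at 55.6, 51.1 and 53.5 CPM in 1X glucose and 105, 100.3 and 95.5 CPM in 2-DG, a rise that was alike in the 3 passages (log2 fold change 0.91 ± 0.04 SE, adjusted p = 6.58e-07). Arrdc4, an arrestin-related protein that lowers glucose uptake, was at 60.4, 80.0 and 73.4 CPM in 1X glucose and 130.3, 147 and 129.9 CPM in 2-DG, again without overlap (0.94 ± 0.06 SE). In the other glucose groups Klf10 averaged 28.2 CPM in 0X and 52.4 CPM in 3X, and Arrdc4 39.6 and 66.9 CPM, so the mean of both was lowest without glucose and highest with 2-DG. The log2 difference of 2-DG from 0X was 1.83 for Klf10 and 1.78 for Arrdc4, and from 3X 0.94 and 1.03, all called. Mlxipl, which encodes ChREBP itself, rose from 1.49 ± 0.310 to 6.49 ± 0.626 CPM (2.14 ± 0.16), and Bhlhe40, a relative of Bhlhe41, rose by 1.54 ± 0.17, a call that needed the passage block.

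Among 28 glycolysis and lactate genes, 12 were called higher and 9 lower, with a median of 0.07. The summed level was 15126, 11708 and 10648 CPM in 1X glucose and 15562, 11551 and 10857 CPM in 2-DG, so it varied far more with passage than with 2-DG. Individual members moved apart. Slc2a1, the main glucose transporter, was at 909, 496 and 496 CPM in 1X glucose and 1292, 727 and 645 CPM in 2-DG, higher in 2-DG at each passage although the groups overlap because passage 13 was high in both (log2 fold change 0.48 ± 0.04 SE). Pfkfb3, which makes the allosteric activator of phosphofructokinase, rose by 0.65 ± 0.07, also with overlap between the groups. Neither was called without the block. The 2 lactate dehydrogenase genes diverged, with Ldhb up from 94.8 ± 12.9 to 152 ± 20.1 CPM (0.68 ± 0.06) and Ldha down by 0.22. Eno2, the neuronal enolase, rose by 1.08 ± 0.15 from a low level, but its most abundant transcript taken alone gave −2.27 and was not called (adjusted p = 0.414). The count of lower genes in this list was 5 without 1X glucose replicate 13, 4 without 1X glucose replicate 15, 3 without 2-DG replicate 15 and 4 without 2-DG replicate 16. In the pentose phosphate pathway none of 10 genes was called higher and 3 were lower, among them Taldo1 (transaldolase, −0.20 ± 0.03, called only with the block) and Prps1 (−0.23 ± 0.04), which makes the ribose donor of nucleotides.

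Citric acid cycle and pyruvate genes were called higher in 13 of 41 (8 without passage 15) and lower in 5. Pcx, pyruvate carboxylase, was at 29.6, 27.4 and 35.8 CPM in 1X glucose and 14.6, 15.9 and 19.7 CPM in 2-DG, every 2-DG library lying below every 1X library (log2 fold change −0.89 ± 0.06 SE, adjusted p = 4.22e-06). In 0X glucose it averaged 38.8 and in 3X glucose 31.5 CPM. Mpc1, a subunit of the mitochondrial pyruvate carrier, fell from 5.93 ± 0.257 to 3.84 ± 0.219 CPM. Pck2, mitochondrial phosphoenolpyruvate carboxykinase, and Gpt2, an alanine transaminase, rose by 0.83 ± 0.10 and 0.56 ± 0.06. Nuclear-encoded respiratory chain genes had 8 of 74 higher, 3 without 1X glucose replicate 16, and 10 lower, 6 without 1X glucose replicate 15. Mitochondrial ribosomal protein genes were called lower in 27 of 78 and higher in 5, with Mrpl2 at −0.44 ± 0.04, but the number lower was 17 without 1X glucose replicate 13 or 2-DG replicate 15 and 16 without 1X glucose replicate 15.

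Cholesterol synthesis and uptake genes were called higher in 20 of 28 and lower in 1 (median 0.19), and without the passage block in 9 and 0. Mvd, which completes the mevalonate branch, was at 89.1 CPM in each 1X library and at 127, 139 and 122.8 CPM in 2-DG (0.54 ± 0.04 SE). Msmo1, a sterol oxidase, rose by 0.44 ± 0.04 and Scap, the sensor that escorts the sterol regulator SREBP, by 0.37 ± 0.04.

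Of 26 amino acid transporters, 15 were called higher and 2 lower (median 0.36). Besides Slc7a3 and Slc7a1, the glycine transporter Slc6a9 rose from 12.1 ± 2.10 to 24.5 ± 3.55 CPM. One-carbon genes were evenly divided, 8 of 27 higher (5 without passage 15) and 8 lower, beside 21.1% and 20.2% over all genes. The higher ones were led by Aldh1l2, a mitochondrial formyltetrahydrofolate dehydrogenase (1.90 ± 0.13), and included Shmt2, which splits serine in mitochondria (0.44 ± 0.06). The metallothioneins Mt1 and Mt2, small proteins that bind zinc and copper, were among the largest changes in the metal list. Mt1 went from 9.73 ± 3.15 to 45.3 ± 19.1 CPM and Mt2 from 9.71 ± 4.64 to 42.9 ± 22.9 CPM, with log2 fold changes of 2.19 ± 0.11 and 2.11 ± 0.12. In all, 15 of 34 metal genes were higher and 4 lower.

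**Figure D4:**
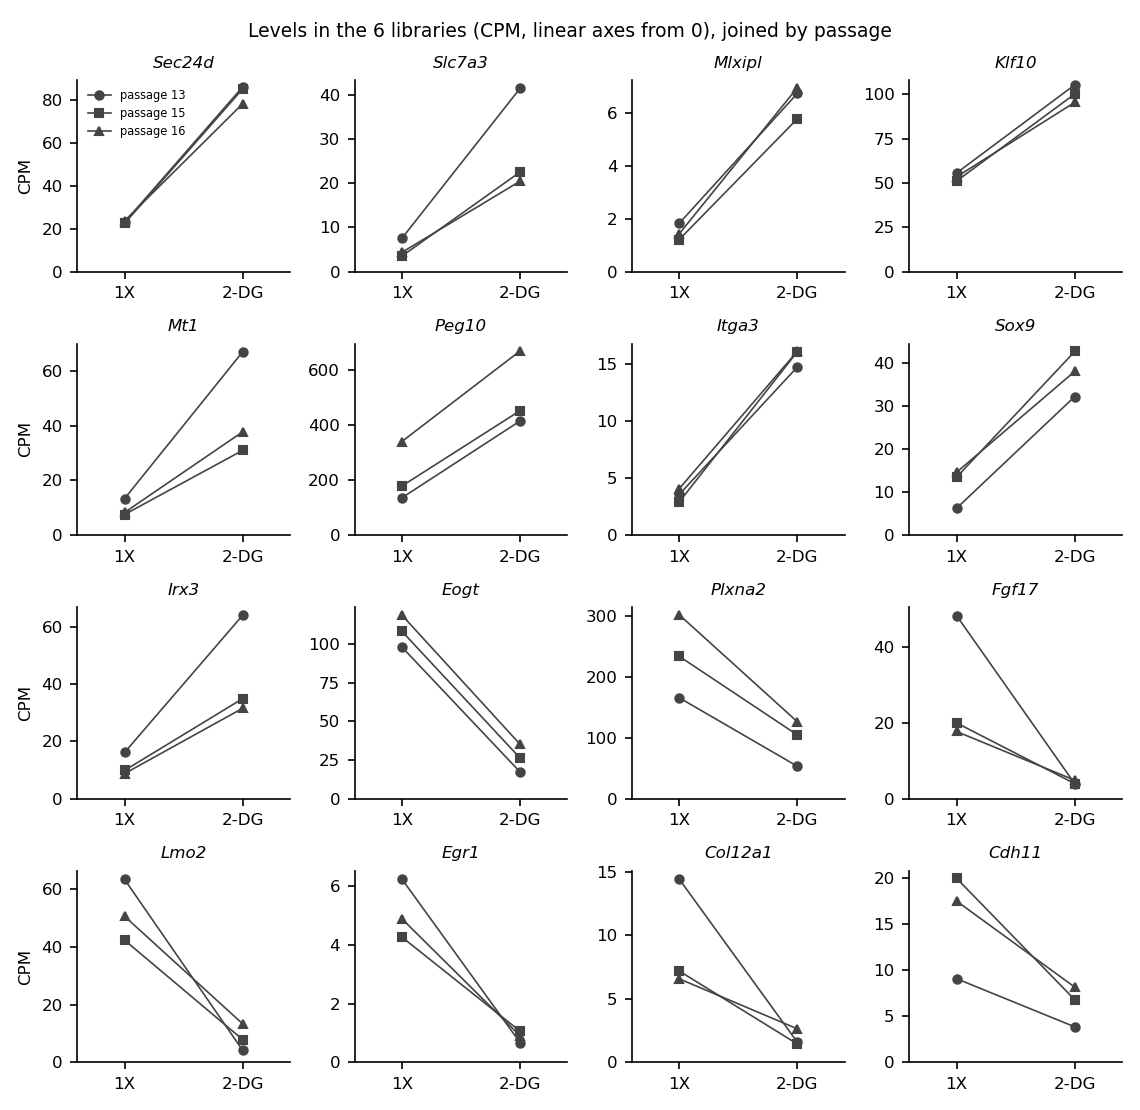
Level in CPM, on linear axes from 0, in each 1X glucose and 2-DG library for 16 genes, with lines joining the libraries of a passage. Klf10 and Sec24d move alike at each passage, and Fgf17 reaches nearly the same level in 2-DG from 1X levels that differ.

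Genes for growth and for copying the genome moved the other way, broadly and by small amounts. Ribosome biogenesis and RNA polymerase I genes were called lower in 42 of 63 and higher in none (median −0.19). Rrp9, a component of the machinery that processes ribosomal RNA, was at 90.3, 82.6 and 85.3 CPM in 1X glucose and 62.9, 63.0 and 64.2 CPM in 2-DG, the groups lying well apart (log2 fold change −0.44 ± 0.04 SE, adjusted p = 1.09e-05), and Ebna1bp2, a factor of the large subunit, fell by 0.38 ± 0.05. Without the block 33 of these genes were lower and none higher, and without passage 15 the number lower was 26. Cytosolic ribosomal protein genes did not follow, with 16 of 84 higher and 1 lower, among them Rpl10 (0.24 ± 0.03) and Rplp0 (0.15 ± 0.03). That count was 2 without 1X glucose replicate 16, between 5 and 7 without 1X glucose replicate 13 or any 2-DG library, and 0 without the passage block. The nucleotide genes had 19 of 33 lower and 5 higher, with Ctps (CTP synthase) at −0.34 ± 0.03, Umps (uridine monophosphate synthesis) at −0.33 ± 0.03 and Impdh1 (guanine nucleotide synthesis) at 0.41 ± 0.04, the last called only with the block. Mycn, a driver of growth genes in the embryo, fell from 140.1 ± 11.8 to 88.5 ± 12.2 CPM (−0.67 ± 0.05).

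Proteasome subunits were called lower in 28 of 37 and higher in none (median −0.15), with 13 lower without the passage block and 10 lower without passage 15. Psmc2, an ATPase of the cap, was at 187, 192 and 179 CPM in 1X glucose and 153, 144 and 149 CPM in 2-DG, so that the highest 2-DG library was below the lowest 1X library (log2 fold change −0.33 ± 0.04 SE). Psmb3, a core subunit, fell by 0.29 ± 0.04, Psmd10, an assembly chaperone, by 0.31 ± 0.05 and Psmb10, an inducible core subunit, by 0.45 ± 0.11.

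DNA replication genes had 30 of 54 lower and 5 higher (median −0.12), DNA repair genes 31 of 62 lower and 4 higher (−0.14), and mitosis genes 26 of 56 lower and 1 higher (−0.11). Mcm10, which loads the replication machinery, fell from 173 ± 11.9 to 128 ± 5.96 CPM, Mcm8, a helicase subunit, by 0.42 ± 0.05, and Orc1 and Pold2, of the origin recognition complex and DNA polymerase delta, by 0.38 ± 0.03 and 0.38 ± 0.03. In repair, Rad51c, a recombination factor, was at 17.3, 16.5 and 13.9 CPM in 1X glucose and 9.60, 8.74 and 8.71 CPM in 2-DG, with no overlap (log2 fold change −0.81 ± 0.08 SE). Polb (base excision) and Ercc8 (transcription-coupled repair) fell by 0.66 and 0.52. Ccnb2, a mitotic cyclin, fell from 115 ± 5.44 to 77.5 ± 4.02 CPM, and Bub1 and Cenpa, both of the kinetochore, by 0.34 and 0.30. The mitosis gene that rose was Cdc25b, a phosphatase that activates cyclin-dependent kinase, from 18.0 ± 4.96 to 39.0 ± 4.11 CPM (1.18 ± 0.19). Ccnd2, cyclin D2, and Cdkn1b, the inhibitor p27, rose by 0.62 ± 0.05 and 0.58 ± 0.06. Without the block 17 replication, 17 repair and 16 mitosis genes were called lower, and without passage 15 the mitosis count was 13.

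Histone genes fell by larger amounts. Of 64 tested, 36 were called lower, 17 of them with a fold of at least 2, and 3 were higher (median −0.40), and 23 were lower without passage 13 or without passage 15. The H3c genes summed to 10.3, 7.95 and 6.395 CPM in 1X glucose and 3.57, 2.78 and 1.78 CPM in 2-DG, a ratio of 0.330, and 9 of 12 were called lower. The H2ac genes, the most abundant in these libraries, summed to 939, 948 and 837 CPM in 1X glucose and 735, 717 and 717 CPM in 2-DG, a ratio of 0.796, with 13 of 16 lower. In both sets every 2-DG sum lay below every 1X sum. H3c3 and H2bc11 fell by 2.58 ± 0.29 and 2.41 ± 0.30 from levels near 1 CPM. H2aw rose from 0.439 ± 0.107 to 2.96 ± 0.187 CPM. The mRNAs of replication-dependent histones end in a stem-loop and have no polyA tail, so in polyA libraries these levels are those of the captured fraction, and the copies of a histone type are near identical and can share reads.

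**Figure D5:**
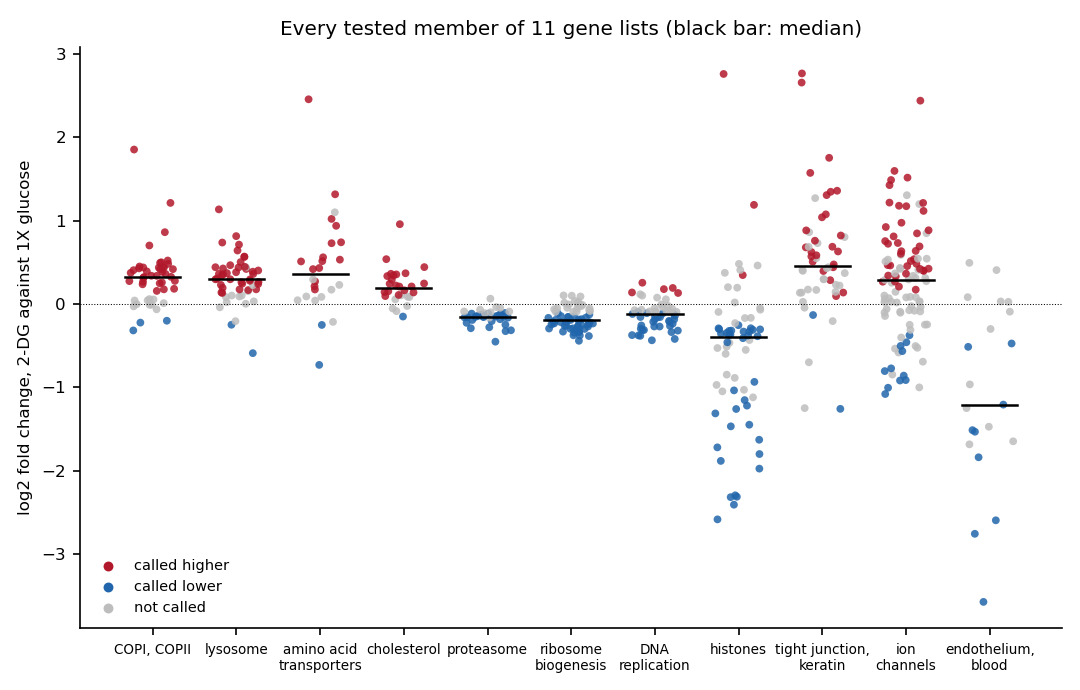
Log2 fold change of 2-DG over 1X glucose for each tested member of 11 gene lists, in red where called higher, blue where called lower and grey where not called, with the list median as a black bar. Proteasome and ribosome biogenesis genes lie in a narrow band around medians of −0.15 and −0.19, and histone and endothelial genes spread far below 0.

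Surface and junction genes were among those with the largest changes. Tight junction, keratin and epithelial genes had 25 of 52 higher, 9 of them with a fold of at least 2, and 2 lower (median 0.46). Cldn3 was at 1.21, 0.368 and 0.562 CPM in 1X glucose and 5.77, 3.38 and 4.98 CPM in 2-DG, so the groups lay apart. Cdh1, E-cadherin, rose from 39.4 ± 10.3 to 74.5 ± 11.97 CPM (0.95 ± 0.10), while the mesenchymal Cdh11 fell from 15.5 ± 5.72 to 6.28 ± 2.204 CPM (−1.29 ± 0.15) and Cdh13, a cadherin without a cytoplasmic tail, rose by 1.39 ± 0.10. Laminins, fibronectin and basement membrane genes had 25 of 60 higher and 9 lower (median 0.27). Tgfbi, a secreted adhesion protein, was at 4.26, 2.74 and 2.77 CPM in 1X glucose and 20.1, 11.8 and 10.7 CPM in 2-DG, with the 2-DG libraries far above (log2 fold change 2.10 ± 0.09 SE, adjusted p = 6.13e-07). Itga3, a laminin-binding integrin, rose from 3.53 ± 0.583 to 15.7 ± 0.787 CPM, and Itgb8, an integrin that releases TGF-beta, fell by 1.46 ± 0.13. Collagens were divided, 11 of 50 higher and 15 lower, beside 21.1% and 20.2% over all genes, with Col12a1 down from 9.38 ± 4.36 to 1.89 ± 0.653 CPM. Actin and actomyosin genes were lower in 32 of 86 and higher in 11, or 6 without the 1X or the 2-DG library of passage 15. Fn1, fibronectin, was at 677, 1473 and 1853 CPM in 1X glucose and 469.6, 1221 and 1203 CPM in 2-DG, lower within each passage although the groups overlap, and its call was lost without passage 16 and without the block.

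Genes of neural cells rose on balance. Synaptic adhesion and vesicle genes were higher in 20 of 38 and lower in 4 (median 0.35), and voltage-gated channels higher in 39 of 103 and lower in 11 (median 0.29). Shank1, a scaffold of synapses, was at 10.5, 5.34 and 5.34 CPM in 1X glucose and 42.3, 20.5 and 17.7 CPM in 2-DG, so that both libraries of passage 13 were higher than those of their group and 2-DG exceeded 1X glucose within each (log2 fold change 1.90 ± 0.10 SE, adjusted p = 1.11e-06). Nrcam, a neural adhesion molecule, rose by 1.63 ± 0.10. Its most abundant transcript taken alone fell by 4.25 and was called lower by the same edgeR test (adjusted p = 0.0109). The potassium channel Kcnd3 rose by 1.49 ± 0.21, the neuronal tubulin Tubb3 from 6.76 ± 1.76 to 17.8 ± 2.52 CPM, and the axonal kinesins Kif1a and Kif21a by 1.27 ± 0.08 and 0.95 ± 0.07. Without the passage block 10 synaptic and 13 channel genes were called higher, and without passage 15 the counts were 10 and 22. Neural tube patterning factors were divided, 8 of 29 higher and 6 lower. Irx3 and Irx5, homeobox factors of the neural tube, rose from 11.6 ± 3.97 to 43.5 ± 17.9 CPM and from 4.25 ± 0.922 to 14.6 ± 3.49 CPM, and Lhx5, a homeobox factor of the forebrain and spinal cord, fell from 1.10 ± 0.159 to 0.237 ± 0.101 CPM. Neural crest and plate border factors were higher in 9 of 18, or 5 without passage 15, and lower in 4 (median 0.42), and surface ectoderm and placode factors higher in 8 of 20 and lower in 1. Sox9 was at 6.26, 13.5 and 14.6 CPM in 1X glucose and 32.2, 42.7 and 38.1 CPM in 2-DG, without overlap (1.80 ± 0.14 SE), and Tfap2c, a factor of surface ectoderm and germ cells, rose by 1.59 ± 0.16. Dlx5, in both lists, rose by 1.36 ± 0.21 within passages while its groups overlap.

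Endothelial and blood progenitor genes fell as a group. None of 21 tested was called higher and 9 were lower, 7 of them with a fold of at least 2, and the median of −1.21 was the lowest of the 89 lists examined. Lmo2, a transcriptional cofactor of blood and vessel progenitors, was at 63.2, 42.3 and 50.5 CPM in 1X glucose and 4.16, 7.87 and 13.3 CPM in 2-DG, so the highest 2-DG library was far below the lowest 1X library (log2 fold change −2.59 ± 0.31 SE, adjusted p = 0.0001). In 0X and 3X glucose it averaged 58.4 and 52.6 CPM. With its most abundant transcript taken alone, Lmo2 was not called. Kdr, the VEGF receptor of vessels, was at 0.768, 4.31 and 6.14 CPM in 1X glucose and 0.351, 0.681 and 0.453 CPM in 2-DG, low at passage 13 in both groups, and it was called only with the passage block. The list summed to 90.1, 82.2 and 96.5 CPM in 1X glucose and 24.8, 32.5 and 39.7 CPM in 2-DG. Lmo2 alone made up most of each 1X sum and most of the fall at each passage. Without 1X glucose replicate 15 the number lower was 6, without passage 16 it was 4 and without the block 3.

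Genes of presomitic mesoderm and somites were lower in 12 of 31 and higher in 3 (median −0.31), and tail bud and trunk regulators lower in 14 of 23 and higher in 4 (median −0.43). Without passage 15 the first count was 7, and without the block the counts of lower genes were 3 and 6. Msgn1, a master factor of presomitic mesoderm, was at 43.7, 39.0 and 61.0 CPM in 1X glucose and 5.65, 10.98 and 32.02 CPM in 2-DG, lower within each passage with the smallest drop at passage 16 (log2 fold change −1.69 ± 0.32 SE), and it was called only with the block. Cyp26a1, which destroys retinoic acid at the tail tip, fell from 54.3 ± 24.6 to 20.04 ± 4.28 CPM. Among lateral and intermediate mesoderm genes 4 of 26 were higher and 4 lower, with Osr1 (−1.92 ± 0.20) lower within each passage and called only with the block. The Hox list had 21 of 29 lower and 2 higher and the primitive streak list 9 of 18 lower and 1 higher. Pluripotency and epiblast genes were divided, 12 of 32 higher (6 without 1X glucose replicate 13) and 9 lower, and Tfcp2l1, a factor of naive pluripotency, rose from 2.64 ± 0.700 to 5.47 ± 0.897 CPM.

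Among signals, the list of FGF ligands and receptors had 5 of 26 higher and 4 lower, a smaller share in each direction than the 21.1% and 20.2% over all genes, and the number higher was 3 without 1X glucose replicate 13 or 16 and 2 without 2-DG replicate 15. Fgf17, a ligand of the tail bud, was at 48.3, 20.02 and 17.8 CPM in 1X glucose and 3.98, 4.00 and 4.90 CPM in 2-DG, a nearly constant level in 2-DG beside 1X levels that differed by passage (log2 fold change −2.56 ± 0.27 SE, adjusted p = 4.71e-05). Fgf1, another ligand, had counts of 55, 32 and 38 in 1X glucose and 0, 2 and 2 in 2-DG. Fgfbp3, a secreted protein that binds FGFs, rose from 30.7 ± 26.4 to 109 ± 63.9 CPM and was called only with the block. Of 17 feedback targets of FGF and ERK, 7 were called lower and 1 higher, with Etv4 and Etv5, transcription factors induced by ERK, down by 1.25 ± 0.12 and 0.71 ± 0.09, and Il17rd, a membrane inhibitor of the pathway, from 294 ± 71.7 to 145 ± 15.6 CPM. Immediate early genes had 7 of 24 lower (4 without 1X glucose replicate 13) and 3 higher. Egr1, which ERK signalling induces within minutes, was at 6.24, 4.26 and 4.88 CPM in 1X glucose and 0.673, 1.06 and 0.906 CPM in 2-DG, each 2-DG library far below (log2 fold change −2.49 ± 0.31 SE), and Ccn1, a secreted matrix-associated protein, fell by 1.11 ± 0.20. Its relative Ccn2 was not called (0.71 ± 0.37 SE). Nor were Fos, Junb and Nr4a1 of the same list, at −0.06 ± 0.25, 0.10 ± 0.16 and −0.02 ± 0.12.

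The Notch list had 10 of 31 lower and 5 higher. Nrarp, a feedback inhibitor that Notch induces, was at 243, 300.5 and 259 CPM in 1X glucose and 119.7, 142 and 146 CPM in 2-DG, a similar drop at each passage (log2 fold change −0.98 ± 0.05 SE, adjusted p = 8.2e-07). Notch4, a receptor of endothelium, fell by 1.09 ± 0.09, but its most abundant transcript alone gave 0.34 and was not called (adjusted p = 0.859). Hes3, a neural repressor, rose by 1.54 ± 0.12 and was called only with the block. The Wnt list had 20 of 85 higher and 16 lower, near the 21.1% and 20.2% over all genes. Wnt10a, a ligand, fell from 3.12 ± 1.94 to 0.636 ± 0.418 CPM. The BMP, Nodal and TGF-beta list had 20 of 62 lower, 8 of them with a fold of at least 2, and 13 higher, or 13 and 8 without passage 16. Nog, a secreted BMP antagonist, fell from 1.70 ± 0.335 to 0.382 ± 0.202 CPM (−2.10 ± 0.36). Hedgehog genes had 7 of 23 higher (4 without passage 15 or passage 16) and 4 lower, with Scube2 and Scube3, which help to release the ligand, up by 2.02 ± 0.33 and 1.02 ± 0.08. Scube1 of the same family fell by 0.55 ± 0.14 and Disp1, which also takes part in ligand release, by 0.52 ± 0.07. Neither was called without the block, nor Scube1 without passage 15 or passage 16.

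Guidance and receptor genes were split between directions. Semaphorins, plexins, netrins and slits had 18 of 55 higher and 18 lower, the largest falls including Plxna2, a semaphorin receptor, from 234 ± 68.2 to 95.1 ± 37.6 CPM, and Sema3g, a secreted semaphorin, at −1.58 ± 0.28. In the ephrin system 7 of 21 were higher, or 4 without 1X glucose replicate 13 or 15, and 6 lower. Efna1, an ephrin ligand, was at 32.1, 21.0 and 24.2 CPM in 1X glucose and 6.59, 7.33 and 11.8 CPM in 2-DG, with no overlap (log2 fold change −1.56 ± 0.22 SE), and Epha2, a receptor that binds it, fell by 1.05 ± 0.13. Igfbp5, a binding protein of insulin-like growth factors, was at 65.8, 25.4 and 15.2 CPM in 1X glucose and 182, 74.97 and 37.3 CPM in 2-DG. It was higher in 2-DG at each passage by nearly the same factor, over 1X levels that fell apart between passages, so the groups overlap (log2 fold change 1.45 ± 0.05 SE, adjusted p = 3.64e-07), and without the block it was not called.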

How the data were processed

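PolyA-selected, strand-specific libraries were sequenced from day 4 gastruloids. The authors trimmed reads with Trim Galore, aligned them to mm10 with HISAT2, removed duplicates with Picard and deposited estimated counts per RefSeq transcript from StringTie for each library. The versions are not given in the sources used here. Removal of duplicates can compress the counts of abundant transcripts.

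Here the estimated counts were summed per gene symbol, 38911 in all, and rounded to whole numbers. Genes were kept by filterByExpr, scaled by TMM and tested with edgeR 4.0.16 in R 4.3.3 by the quasi-likelihood test over all 12 libraries, with group and ES cell passage as terms, 6 residual degrees of freedom and Benjamini-Hochberg adjustment over 16966 genes. The labels number the replicates by passage, and passage was set as a block in advance. The check of deviations gave correlations above 0.1 at each passage. It has no values between different passages beside it and did not decide the choice. DESeq2 1.42.0 and limma 3.58.1 were alternatives. The scripts were tested on simulated data. No statement in the sources says that plates of different passages were seeded independently beyond the passage. The p-values measure the spread that remains between these libraries after the passage term.

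Genes were named by rank, among called genes that moved the same way in 3 of 3 passages: the 15 highest and 15 lowest fold changes with a mean of at least 1 CPM, the 10 largest changes in CPM and the 5 smallest p in each direction, and the 4 largest changes in each list. Genes named for a promoter motif, and Mlxip, Scube1, Disp1, Ccn2, Fos, Junb, Nr4a1 and the marker Cdx2, were chosen after their values were seen. Members and lists were chosen with earlier results of these data known. Promoter sequences are from RefSeq on GRCm38.p6. Columns of the authors' own comparisons, which hold fold changes and p-values, were not used. Some genes that this rule names are not reported here.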

Additional observations from a re-analysis of the deposited data

How the results depend on the processing

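Without the replicate block 2990 genes were called in place of 7001, 1547 higher and 1443 lower, and 544 with a fold of at least 2 in place of 836. Taking the most abundant transcript of each gene alone gave 2015 called genes, 1030 higher and 985 lower, with 460 past a fold of 2, and a mean of at least 100 counts left 297 past a fold of 2, since genes with few counts are then not tested. With 1 library or passage left out, called genes numbered 3749 to 6382, higher ones 1939 to 3308, lower ones 1810 to 3110 and those past a fold of 2 647 to 888, the low end of the first 3 being that without passage 15. No filter on low counts, median-of-ratios factors, the 6 compared libraries alone, DESeq2, limma-voom, and offsets for transcript length and GC content, the last chosen after seeing the data, gave between 5294 and 7100 called genes.

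Of 170 genes named in the text as called, 94 kept direction and call in each of the 18 alternatives that could be computed for them. Without the block 28 of the calls were lost. The most abundant transcript alone lost 58 calls and turned 3 directions, Eno2 to −2.27, Nrcam to −4.25 and Notch4 to 0.34. Of these 3, Nrcam was called in the turned direction. Among the lost calls were those of Slc7a3, Mlxipl, Tgfbi, Shank1, Plxna2, Lmo2, Cdh11, Etv4 and Psmc2. The cause of these losses and turns was not tested. Among 89 gene lists, 39 had a median of at least 0.1 in size, 37 to 48 under the alternatives, and of these 39 the definitive endoderm and notochord list changed sign, from 0.22 to −0.13 with the most abundant transcript alone, −0.09 without 2-DG replicate 13 and −0.01 without passage 13. On simulated counts for this comparison, 200 genes with a mean of at least 100 counts were made to differ, far fewer than were called here. The test recovered 143 of 200 made to differ by 0.5 on the log2 scale and 196 of 200 made to differ by 1, so some differences of 0.5 are missed. Of the genes it called, 7.14% and 3.92% had not been made to differ. The fold change correlated with transcript length and GC content across 15665 genes at a Spearman coefficient of 0.084 and 0.095.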

Other observations

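Imprinted genes, which are transcribed from the copy of a single parent, were divided, with 7 of 30 called higher and 8 lower. Over all genes the shares were 21.1% and 20.2%. Peg10, a gene derived from a retrotransposon, was at 136, 179 and 340.3 CPM in 1X glucose and 415, 452 and 669 CPM in 2-DG, above all 1X libraries in 2-DG (log2 fold change 1.31 ± 0.10 SE by edgeR's quasi-likelihood test, adjusted p = 5.74e-06). Magel2 and Plagl1 rose by 0.89 ± 0.07 and 0.94 ± 0.16, and the noncoding H19 fell by 0.90 ± 0.12. Peg10, Magel2 and H19 were called only with the passage block, and the count of higher genes was 4 without 1X glucose replicate 13 or 16 or 2-DG replicate 13, and that of lower genes 4 without 1X glucose replicate 15 and 5 without 2-DG replicate 15. Circadian clock genes had 6 of 21 higher and 2 lower.

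Of 2075 long noncoding RNA genes tested 398 were called (19.2%), and of 14425 protein-coding genes 45.3%, a difference that was not tested. Of the noncoding ones, 59 were higher and 63 lower with a fold of at least 2. Pcdha4, of the clustered protocadherins, had 5, 0 and 0 counts in 1X glucose and 160, 255 and 207 in 2-DG. It was not called without the block. Pcdhac2 fell by 1.74 ± 0.34. The genes of this cluster share their last exons, so reads can pass between them, and the cluster as a whole summed to 15.4, 18.2 and 18.1 CPM in 1X glucose and 21.5, 19.9 and 19.7 CPM in 2-DG. Other genes with small p were Gpr153, an orphan receptor, up by 1.57 ± 0.07, Rfx4, a factor of neural progenitors and cilia, up by 2.24 ± 0.13, Limd2 and Lor, down by 0.68 ± 0.03 and 1.84 ± 0.10.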
